A study of Mus musculus with 4 samples.

Results

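The Gimap genes encode GTPases of immunity-associated proteins, a family of small GTP-binding proteins made mainly by lymphocytes. The 8 members here, Gimap1, Gimap3, Gimap4, Gimap5, Gimap6, Gimap7, Gimap8 and Gimap9, were chosen by gene symbol among 19938 named genes of the array. Each had 1 probe set annotated to it alone, so the step of the rule that keeps the brightest probe set of a gene, averaged over the 4 arrays, had nothing to choose between. All 8 are followed below, and no filter removed any of them. The family was picked with earlier results of these arrays known. Its counts therefore describe these arrays and are no independent evidence.

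Gimap proteins share a GTP-binding domain and sit largely on inner membranes such as those of the endoplasmic reticulum, lysosomes and mitochondria. Gimap5 is best known from rodents that lack it, which lose most peripheral T cells, and Gimap1 is likewise needed to keep mature T and B cells. Several members are known to rise as thymocytes mature, so the family is often read as part of the lymphocyte programme.

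Transcripts were measured on Affymetrix whole-transcript arrays in C57BL/6 bone marrow cells, as a log2 probe set signal. LMPPs, lymphoid-primed multipotent progenitors sorted as lineage marker negative, Sca and kit positive and Flt3 high, were wildtype, pooled, and kept 48 hours in the stimulation medium with cytokines before lysis (1 array). LMPPs transduced with the Tcf1-VEX retrovirus and grown on OP9, a marrow stromal line, gave Thy1+CD25+ cells at day 10, labelled as biological replicates (2 arrays, called Tcf1 cells below). LMPPs given the VEX vector alone and grown on OP9-DL4, which carries the Notch ligand DL4, gave the control cells, also sorted as Thy1+CD25+ at day 10 (1 array). Both day 10 populations were sorted as DAPI-CD45.2+Mac1-Gr1-, received IL7 and Flt3L in culture, and were sorted for the vector's VEX marker at 48 hours after infection. The promoter that drives Tcf1 in the retrovirus is not given in the labels, and Tcf7, the gene for Tcf1, had no probe set of its own and was not analysed here, so the labels were not checked by it. Tcf1 cells and control cells differ in vector and in stroma together, and the effects of the 2 cannot be told apart. Mice or cultures behind the replicates are not named, so the spread between these 2 arrays may be partly technical. The p-values combine each gene's own spread between them with a spread pooled over all genes. The pooled spread weighs more (5.78 degrees of freedom against 1).

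The arrays had medians between 7.47 and 7.59 over the named genes. Of the genes that check the labels, Thy1 read 8.13 in LMPPs, 12.38 and 12.53 in Tcf1 cells and 12.98 in control cells, and Il2ra, which encodes CD25, read 6.88, then 12.91 and 12.99, then 13.64. Flt3 read 11.91 in LMPPs and 6.75 in control cells, but 10.97 and 11.03 in Tcf1 cells. The sort genes thus followed the labels. Flt3 was lower in Tcf1 cells than in LMPPs, by a difference of -0.91 (adjusted p = 0.0339, limma), and higher than in control cells by 4.24. The CD3 chain Cd3g read 5.62 in LMPPs and 13.001 in control cells, and only 6.48 and 6.64 in Tcf1 cells. In such bulk samples, fewer cells of a type and less RNA per cell cannot be told apart.

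The genes lie side by side in one cluster on mouse chromosome 6, in the order Gimap8, Gimap9, Gimap4, Gimap6, Gimap7, Gimap1, Gimap5 and Gimap3, with 6 on the plus strand and Gimap6 and Gimap3 on the minus strand. The 250 bases before the start are shown for the 3 members with the largest difference between Tcf1 and control cells, and for Gimap3, the member with the smallest difference that passed the test. They come from RefSeq on GRCm38.p6 and are written 5′ to 3′ on the strand of the gene, at chr6:48708245-48708494 (minus) for Gimap6, chr6:48745947-48746196 (plus) for Gimap5, chr6:48675885-48676134 (plus) for Gimap9 and chr6:48770852-48771101 (minus) for Gimap3. Capitals mark every match to the letters searched.
Gimap6: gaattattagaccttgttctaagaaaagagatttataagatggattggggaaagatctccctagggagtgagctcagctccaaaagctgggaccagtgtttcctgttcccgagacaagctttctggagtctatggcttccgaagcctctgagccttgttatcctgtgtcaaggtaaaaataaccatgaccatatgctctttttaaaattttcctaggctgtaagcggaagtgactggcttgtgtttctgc
Gimap5: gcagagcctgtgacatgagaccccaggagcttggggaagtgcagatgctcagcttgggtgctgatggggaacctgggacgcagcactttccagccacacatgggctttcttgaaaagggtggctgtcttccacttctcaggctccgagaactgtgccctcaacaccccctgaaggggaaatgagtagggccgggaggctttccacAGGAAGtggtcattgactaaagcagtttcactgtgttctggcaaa
Gimap9: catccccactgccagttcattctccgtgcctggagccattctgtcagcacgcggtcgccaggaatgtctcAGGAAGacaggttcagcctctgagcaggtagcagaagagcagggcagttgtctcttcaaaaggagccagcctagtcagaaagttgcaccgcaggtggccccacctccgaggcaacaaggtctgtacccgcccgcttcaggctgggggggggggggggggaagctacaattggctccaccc
Gimap3: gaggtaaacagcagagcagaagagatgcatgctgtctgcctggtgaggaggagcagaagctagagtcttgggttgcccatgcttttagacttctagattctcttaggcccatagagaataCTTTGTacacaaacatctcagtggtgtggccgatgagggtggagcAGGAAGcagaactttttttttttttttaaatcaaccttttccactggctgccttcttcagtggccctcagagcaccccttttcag

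The letters of 5 motif cores were searched on both strands of these windows, and the same windows before 32851 starts of all genes gave the background. RefSeq gives the 8 genes 9 starts, 2 of them for Gimap8 with overlapping windows. AGGAAG, a spelling of the core bound by Ets factors, was found before 7 of the 8 genes, all but Gimap6, and before 7 of the 9 starts. It was found before 29.5% of all starts. The core of Tcf and Lef factors, the family of Tcf1, was searched as CTTTGA and with T in place of the last letter. It was found before Gimap3 and Gimap8 (3 of the 9 starts), and before 27.6% of all starts. The Runx core, TGTGGT, was found before Gimap1, Gimap4 and Gimap7 (3 of the 9 starts), and before 14% of all starts. The core of RBPJ, the DNA-binding partner of Notch, is TGGGAA, letters that Ikaros motifs share. It was found before none of the members and before 21.6% of all starts. AGATAA, a spelling of the GATA core, was likewise found before none of the members and before 9.99% of all starts. Gimap6, which had the largest difference below, held none of these letters in its window. Other spellings of these cores were not searched. A match or its absence here describes only the letters searched.

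The first comparison set Tcf1 cells, made without a Notch ligand, against control cells, made with one. The Gimap genes were lower in Tcf1 cells: 7 of 8 passed the test downward, none upward, and Gimap8 narrowly missed. Among all genes tested, 2.49% were called lower, 1.90% higher and 4.38% in either direction. The test was limma over all 19938 genes with Benjamini-Hochberg adjustment, and a gene passed at an adjusted p under 0.05. The control array was above all 3 other arrays for every member, as it was for 25.3% of all genes. The median difference over the 8 was -1.87 on the log2 scale, against 0.02 over all genes, and 6 of 8 were at least 2-fold lower, against 2.02% of all genes.

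**Figure D1:**
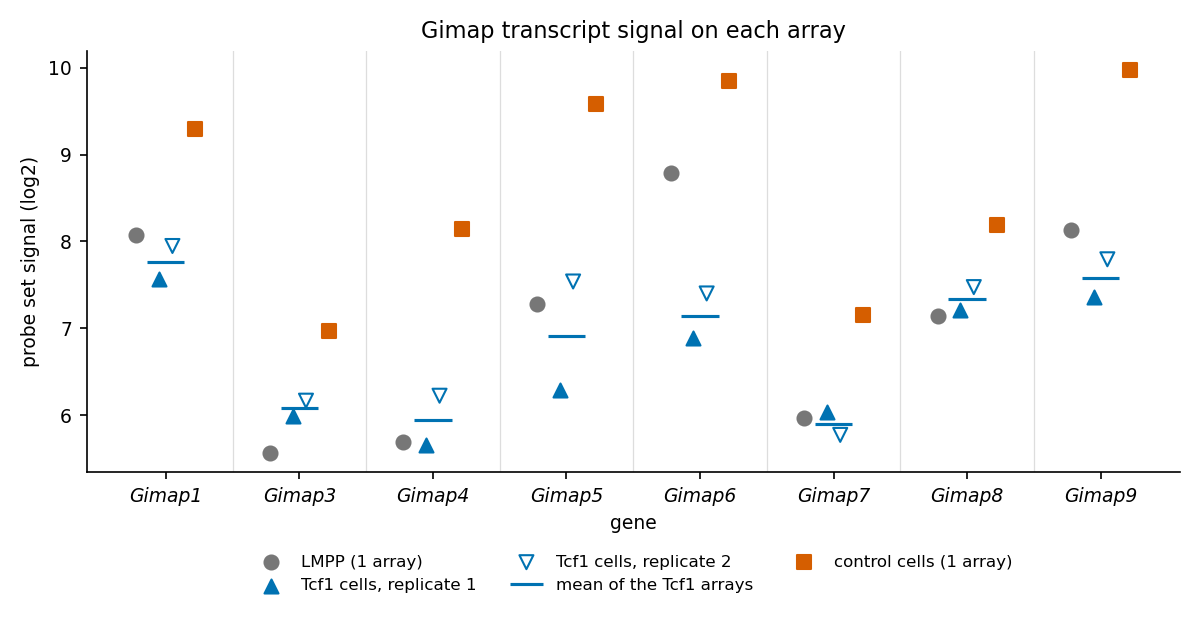
Probe set signal (log2, vertical axis) of each Gimap gene on the 4 arrays: LMPP (circle), Tcf1 cells replicates 1 and 2 (triangles, with a bar at their mean) and control cells (square). The control square lies above the other 3 arrays for all 8 genes; heights of different genes are not comparable, since probe sets differ in brightness.

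Gimap6, a member linked to autophagy through its binding to a GABARAP protein, had the largest difference. It read 9.85 in control cells, 8.79 in LMPPs and 6.89 and 7.40 in Tcf1 cells. The Tcf1 arrays lay below both others, with no overlap. Tcf1 cells were lower than control cells by a log2 difference of -2.71 (SE 0.23, adjusted p = 0.00174, limma), so control cells held 6.52 times the signal.

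Gimap5, the survival factor of peripheral T cells, read 9.59 in control cells, 7.28 in LMPPs and 6.29 and 7.54 in Tcf1 cells. The Tcf1 replicates lay on both sides of the LMPP array and both well below the control array. Their gap of 1.25 was the widest among the members, and only 0.0953% of all genes had a wider one. The difference from control cells was -2.67 (SE 0.44, adjusted p = 0.0207, limma), and it was -3.29 in replicate 1 and -2.05 in replicate 2. Gimap3, which pairs with Gimap5 and is its close relative in sequence, read 6.97 in control cells, 5.56 in LMPPs and 5.99 and 6.17 in Tcf1 cells. The Tcf1 arrays fell between the other groups. The difference from control cells was -0.90 (SE 0.17, adjusted p = 0.0351, limma). Whether the Gimap3 and Gimap5 probes can pick up each other's transcripts was not tested. Gimap1, needed by mature T and B cells, read 9.30 in control cells, 8.07 in LMPPs and 7.57 and 7.95 in Tcf1 cells, with a difference of -1.54 from control cells (SE 0.20, adjusted p = 0.00867, limma).

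Gimap4, a GTPase that speeds the death of T cells, read 8.15 in control cells, 5.69 in LMPPs and 5.65 and 6.22 in Tcf1 cells. Replicate 1 was at the LMPP level and replicate 2 a little above it. The difference from control cells was -2.21 (SE 0.25, adjusted p = 0.00468, limma), a 4.62-fold higher signal in control cells. Gimap7, whose GTP hydrolysis is stimulated when molecules pair, read 7.16 in control cells, 5.97 in LMPPs and 6.03 and 5.77 in Tcf1 cells. LMPP and Tcf1 arrays were close together, and Gimap7 was the single member with replicate 2 below replicate 1. It differed from control cells by -1.25 (SE 0.18, adjusted p = 0.0125, limma).

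Gimap9 read 9.98 in control cells, 8.13 in LMPPs and 7.36 and 7.79 in Tcf1 cells. Both Tcf1 arrays were lowest. Its difference from control cells was -2.40 (SE 0.21, adjusted p = 0.00197, limma), which is 5.27 times more signal in control cells. Gimap8, the member with several GTP-binding domains in one chain, read 8.19 in control cells, 7.14 in LMPPs and 7.21 and 7.47 in Tcf1 cells. Its difference of -0.85 (SE 0.18, adjusted p = 0.0543, limma) did not pass, with a 95% interval for this gene alone of -1.29 to -0.42. Gimap3 just passed and Gimap8 just missed with nearly the same difference, so the line between them is thin.

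**Figure D2:**
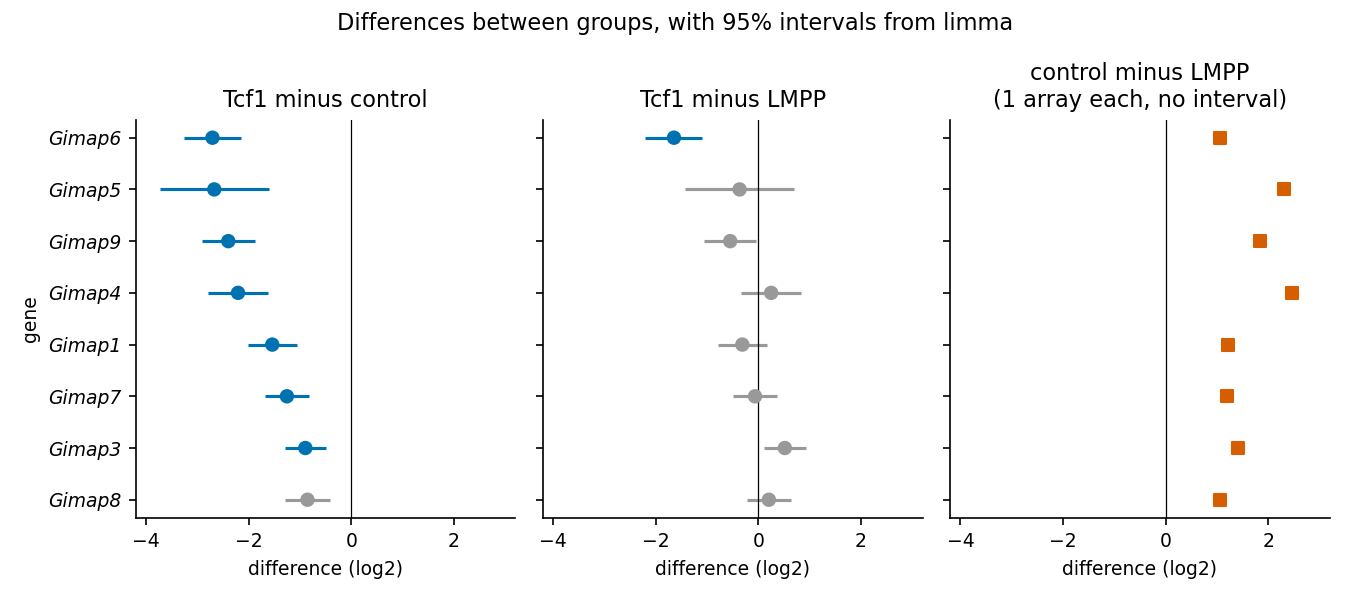
Differences between groups for each Gimap gene on the log2 scale (horizontal axis), as points with 95% intervals from limma, unadjusted, for Tcf1 cells minus control cells (left) and minus LMPPs (middle); the right panel gives control minus LMPP, 1 array each. Blue marks an adjusted p under 0.05 and grey the others: 7 genes are blue on the left, from -2.71 to -0.90, and Gimap6 alone in the middle.

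Spread between arrays was seen in the Tcf1 pair alone (1 residual degree of freedom) and was taken to hold for the single arrays too. No member passed in either comparison with limma over all 35399 probe sets, where 0 probe sets passed at all (8 members had an unadjusted p under 0.05 against control cells and 2 against LMPPs), or with unmoderated standard errors (0 and 0), where 12 of 19938 genes passed in each.

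Among the 19938 genes ordered by Tcf1 minus control, Gimap6 stood at position 32 from the lowest, Gimap5 at 33, Gimap9 at 50 and Gimap4 at 61. Gimap1 followed at 155 and Gimap7 at 251, then Gimap3 at 492 and Gimap8 at 537. The family thus spread over the lower tail, with a group of 4 genes more than 4-fold lower and a group of 2 between 1.81-fold and 1.86-fold lower.

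**Figure D3:**
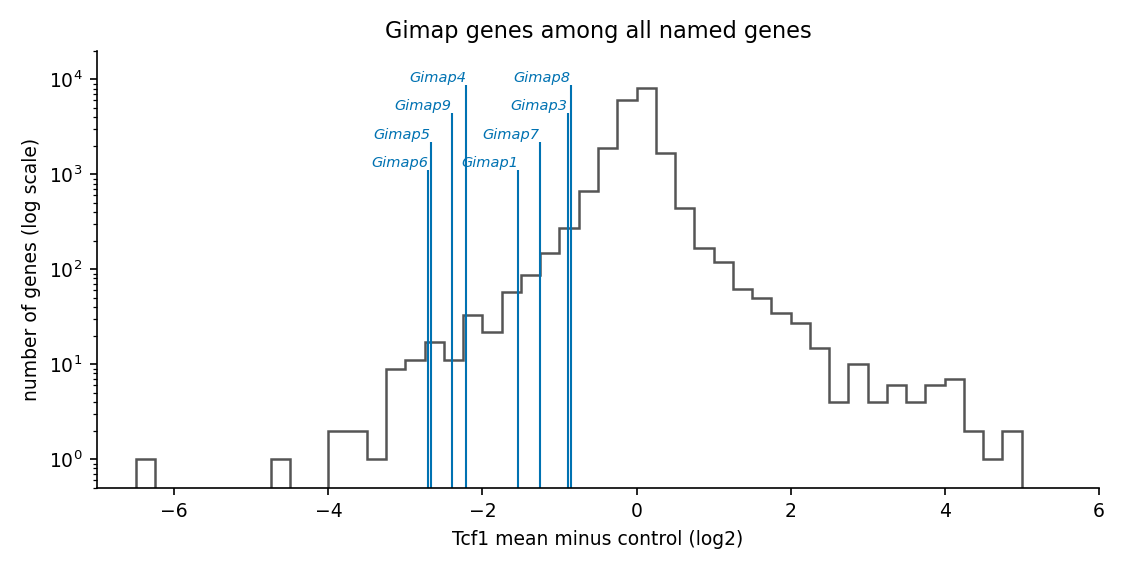
Number of named genes (vertical axis, log scale) by the difference of Tcf1 mean minus control (log2, horizontal axis, bins of 0.25), with a line at each Gimap gene. The 8 lines all lie in the lower tail, between -2.71 and -0.85, while the median of all genes is 0.02.

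Tcf1 cells were then compared with LMPPs, the cell type they were grown from. They differ from the LMPP array in vector, stroma, time in culture and sort together, and these effects cannot be told apart. Here 1 of 8 members passed, Gimap6, with a log2 difference of -1.65 (SE 0.23, limma's adjusted p = 0.0145), a signal 3.13-fold lower. Of all genes tested, 1.31% were called lower, 1.75% higher and 3.06% in either direction. The members' median was -0.19, and 0.0047 over all genes. Gimap9 differed by -0.55 (adjusted p = 0.3, limma) with both Tcf1 arrays lower, and so did Gimap1 by -0.31. Gimap3 differed by 0.51 (adjusted p = 0.214, limma) and Gimap8 by 0.20, with both Tcf1 arrays higher. For Gimap4, Gimap5 and Gimap7 the LMPP array lay between the Tcf1 replicates, so these data give them no direction.

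A member that did not pass is not shown to be alike in LMPPs and Tcf1 cells. The 95% intervals, unadjusted, ran from -1.43 to 0.69 for Gimap5 and from -1.06 to -0.04 for Gimap9. For Gimap3 the interval was 0.11 to 0.92, and for Gimap4 -0.34 to 0.84. For Gimap7 it was -0.50 to 0.37, for Gimap8 -0.23 to 0.64 and for Gimap1 -0.80 to 0.17. A 2-fold fall thus lay inside the interval for Gimap5 and Gimap9, and a 2-fold rise inside none of these 7.

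Control cells against LMPPs was 1 array against 1 and had no test. Control cells too differ from the LMPP array in vector, stroma, time in culture and sort together. All 8 members were at least 2-fold higher in the control array, and so were 3.17% of all genes, while 2.36% were at least 2-fold lower. The differences ran from 1.06 for Gimap8 and Gimap6 to 2.46 for Gimap4, with 2.30 for Gimap5, 1.85 for Gimap9, 1.41 for Gimap3, 1.23 for Gimap1 and 1.19 for Gimap7. Their median was 1.32, against -0.01 over all genes. The control signal was 5.49 times that of LMPPs for Gimap4 and 4.94 times for Gimap5, and 2.08 times for Gimap6 and Gimap8, the 2 members nearest to the 2-fold line. Gimap8 fell short of it after renewed quantile normalization, at a difference of 0.99. The control array enters this comparison and the one with Tcf1 cells, so the 2 are not independent.

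The order of the groups differed among members below the control array. For Gimap1, Gimap6 and Gimap9 it ran control, LMPP, Tcf1, and for Gimap3 and Gimap8 control, Tcf1, LMPP, though among these the step between LMPPs and Tcf1 cells passed the test for Gimap6 alone. The distance between members' profiles, the root mean square difference of log2 values centred on each gene's mean over the 4 arrays, was smallest between Gimap3 and Gimap8 (0.15) and largest between Gimap3 and Gimap6 (1.01). Gimap4, Gimap5 and Gimap9 lay 0.33 to 0.37 from each other. Gimap3 and Gimap8, the most alike, stand at opposite ends of the cluster.

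Replicate 2 read higher than replicate 1 for 7 of 8 members, as for 67.9% of all genes. The median gap was 0.40 for the members and 0.15 for all genes. Gimap4 (0.57) and Gimap6 (0.51) followed Gimap5 in the size of the gap, and Gimap3 had the smallest (0.18). With either replicate alone, the same number of members, 6, was at least 2-fold below the control array.

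Some members were dim. Gimap3 and Gimap7 were below the 25th percentile of genes on the LMPP array and on both Tcf1 arrays, and Gimap4 on the LMPP array and Tcf1 replicate 1. On the control array no member was below it. Signal over background was not measured here, and a difference that ends near background can be an underestimate.

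Genes around the cluster were read next. The 5 nearest measured genes on each side were taken in chromosomal order, and of these 10, 2 were lower in Tcf1 than in control cells, 1 was higher and 7 did not pass. Next to Gimap8, AI854703 (-0.29) and Zfp775 (-0.06) did not pass. Beyond them Repin1, a zinc finger protein, was lower by a difference of -1.21 (adjusted p = 0.0113, limma) and Gm5111 by -2.18 (adjusted p = 0.00317, limma). Gm5111 read 9.58 in control cells, 7.66 in LMPPs and 7.18 and 7.64 in Tcf1 cells, an order like that of Gimap1 and Gimap9. Past Gimap3, Tmem176b (-0.54) and Tmem176a (-0.64), membrane proteins of myeloid and other immune cells, did not pass, and Aoc1, an amine oxidase, was higher in Tcf1 cells by 1.06 (adjusted p = 0.044, limma). The genes directly at both ends of the cluster therefore did not pass, while 2 genes further out on the Gimap8 side did.

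**Figure D4:**
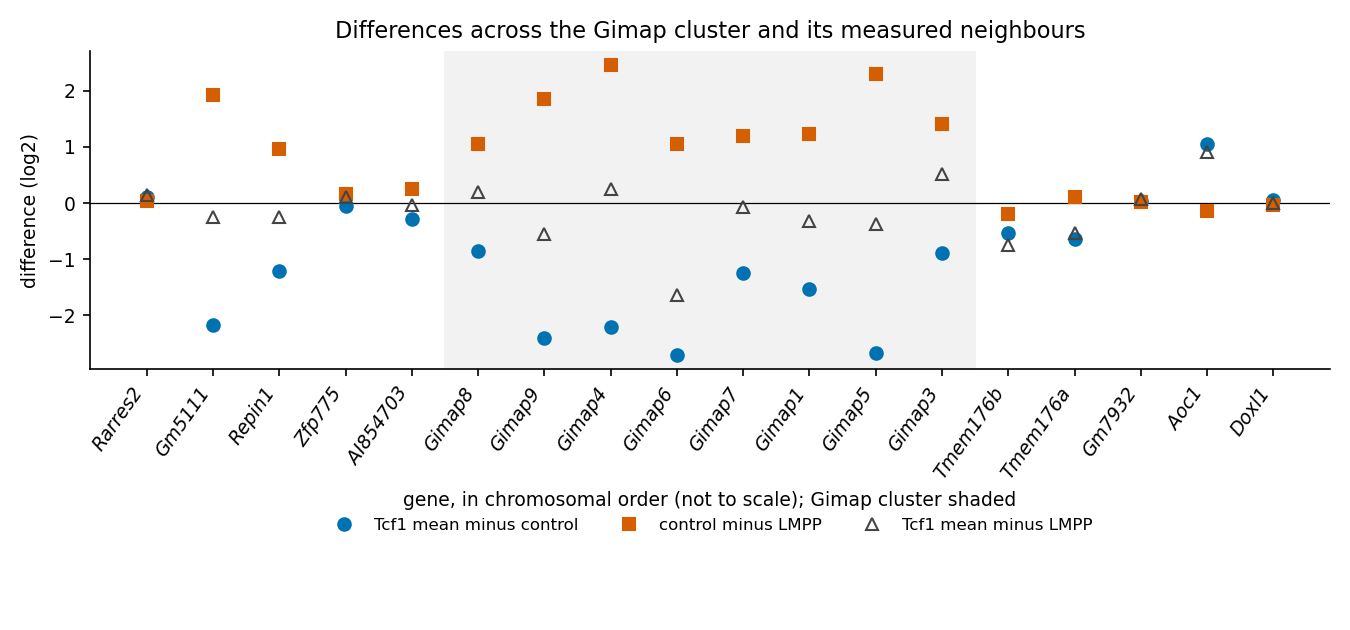
Difference (log2, vertical axis) of Tcf1 mean minus control (filled circles), control minus LMPP (squares) and Tcf1 mean minus LMPP (open triangles) for the Gimap genes (shaded) and the 5 nearest measured genes on each side, in chromosomal order and not to scale. Every Gimap gene has a square above 1 and a circle below -0.8; outside, Gm5111 (1.93 and -2.18) has the same arrangement, and Repin1 (0.96 and -1.21) comes close to it.

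Genes most like the 3 members with the widest range over the arrays were found by the same profile distance, over 4 arrays and without predicted or clone-named genes. For Gimap9 they were Rag2, a subunit of the recombinase of antigen receptor genes (distance 0.09), Cdh1, the adhesion protein E-cadherin (0.12), and Ehd3, a membrane trafficking protein (0.13). Rag2 read 7.24 in LMPPs, 6.37 and 6.79 in Tcf1 cells and 8.83 in control cells. For Gimap6 they were Slc14a1, a urea transporter (0.12), Fmnl2, a formin of the actin skeleton (0.15), and Itih5, an inhibitor chain family member (0.16). For Gimap5 the nearest were Pgr, the progesterone receptor (0.34), Taf4b (0.34) and Atp1b1, a sodium pump subunit (0.35). Likeness over 4 arrays is a description of these arrays.

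Other genes were read beside the family. Gimap proteins have been reported to bind Bcl2 proteins, which set the threshold of cell death. Of 13 measured Bcl2 family genes none passed in either comparison with limma, and at an unadjusted p under 0.05, 3 differed from LMPPs and 2 from control cells. After renewed quantile normalization 1 passed in each comparison. With median centring and with either filter on signal level, 1 passed against LMPPs and 0 against control cells. Bcl2 itself, named after its values were seen, read 12.22 in LMPPs, 12.39 and 12.69 in Tcf1 cells and 12.68 in control cells. The list's median of Tcf1 minus control was 0.05, where that of the Gimap genes was -1.87.

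Of 10 measured interferon-inducible and dynamin-like GTPases, a group of other immune GTPases, 3 were lower and 2 higher in Tcf1 than in control cells. Gbp9 differed by -1.58 and Gbp4 by -1.36, guanylate-binding proteins of host defence, while Mx1, an antiviral GTPase, was higher by 1.14. Against LMPPs 5 rose and none fell, with Gbp4 up by 1.97 and Irgm1 by 1.11. No Gimap gene passed the test upward there, though Gimap3 (0.51) and Gimap8 (0.20) were higher in both Tcf1 arrays. The median of Tcf1 minus LMPP was 0.95 in this group and -0.19 in the Gimap family, a difference that was not tested.

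Markers of cell types also differed between Tcf1 and control cells. Of 11 measured T lineage markers, 7 were lower in Tcf1 than in control cells and none higher, with Cd3g at -6.44 and Cd3e at -2.98. The sort markers moved less: Thy1 differed by -0.52 (adjusted p = 0.187, limma) and Il2ra by -0.69 (adjusted p = 0.0762, limma), both smaller in size than each of the 8 Gimap differences. The summed linear signal of the T lineage list was 2243 in LMPPs, 15889 and 17263 in Tcf1 cells and 38705 in control cells. That of the 8 Gimap genes was 1451, then 879 and 1203, then 4174. Thy1 and Il2ra, on which the cells were sorted, made up most of the T lineage sum in Tcf1 cells. Without them, a choice made after the data were seen, the sum of the other 9 markers was 1846 in LMPPs, 2836 and 3195 in Tcf1 cells and 17873 in control cells. Against LMPPs, 6 of the 11 T lineage markers were higher in Tcf1 cells and 1 was lower. Of the 8 Gimap genes, none passed upward there and 1 passed downward.

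Of 12 macrophage and granulocyte markers, 7 were higher in Tcf1 than in control cells and none lower, with Adgre1 (4.76), Cybb (4.39) and Lyz2 (4.09) furthest apart. Their summed signal was 11194 in LMPPs, 11392 and 13177 in Tcf1 cells and 1876 in control cells. Of 10 dendritic cell markers, 4 were higher, with Cd74 at 4.53 and H2-Aa at 4.06, and the sums were 6738, then 3838 and 7593, then 1134. Array values have no 0, and none of the markers of these 2 lists was below the 25th percentile of genes on all 4 arrays. Among 4 LMPP markers, Flt3 (4.24) and Cd34 (3.90) were higher in Tcf1 cells. The part of all these markers in the Gimap differences was not tested. Fewer moved in the lists of B lineage (1 of 9 lower, Cd79b), NK and innate lymphoid (1 of 10 lower and 1 higher, Nkg7 and Klrd1), stromal (1 of 10 lower and 1 higher, Pdgfrb and Bgn) and mature T cell markers (0 of 6, limma, with 1 lower at an unadjusted p under 0.05, and 1 past the test with median centring, with either filter and with a trend).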

How the data were processed

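Each gene had 4 values, 1 per array. The authors deposited log2 probe set signals, made with RMA and Partek 6.5 per the submitters' processing notes, which name no parameters. Base 2 was inferred: RMA uses it, and the values span 3.44 to 14.45. For the build, too, the sources used here name none. Scanner files were not used.

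Of 35399 probe sets, 21789 carried 1 gene symbol in the platform annotation, 1621 several and 11989 none. For 999 genes with several probe sets, the one with the highest mean was kept, giving 19938 genes; probe sets with several or no symbols were left out. A model of 3 group means was fitted to all 4 arrays (limma 3.58.1, R 4.3.3) with empirical Bayes moderation (prior 5.78 degrees of freedom, 6.78 in all), adjusted over all genes (Benjamini-Hochberg). The number of arrays limits the precision. SDs and replicate gaps come from 2 arrays. The fit was run on simulated data in which all arrays of a gene had the same spread. It therefore could not check whether the single arrays share the spread of the Tcf1 pair. RMA brings the arrays to a common distribution, so differences are relative to the other genes.

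The members and gene lists were chosen with earlier results of these data known. Named are all 8 members, up to 4 genes per list with the largest differences among those past the test, the 5 nearest measured genes on each side of the cluster, and 3 genes most like each of 3 members. Bcl2, Btg2 and Pecam1 were named after their values were seen, and Thy1, Il2ra, Flt3 and Cd3g serve to check the labels. Alternatives were 2 scalings, 2 filters, all probe sets, mean probe sets, 2 forms of moderation and each Tcf1 replicate left out.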

Additional observations from a re-analysis of the deposited data

How the results depend on the processing

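All 8 members stayed lower in Tcf1 cells than in control cells under each alternative that tested them, and with either replicate alone. The count of 7 past limma's test moved to 0 over all 35399 probe sets, of which 0 passed. Without moderation it moved to 0 as well, where 12 of 19938 genes passed. It was 4 of the 4 members left among genes above the median level. Fewer genes, 9969, were tested there, and 7.99% of them were called lower, against 2.49% before. The count of 1 against LMPPs, Gimap6, likewise moved to 0 over all probe sets and to 0 without moderation. The counts over all features were again 0 and 12. The cause was not tested. Gimap8 passed with median centring, with the filter at the 25th percentile, with mean probe sets and with a trend (adjusted p from 0.00751 to 0.0434, limma). In these settings, in that order, 5.24%, 5.57%, 2.76% and 3.37% of all genes tested were called lower. The median of Tcf1 minus control was -2.21 over the 7 members above the 25th percentile and -2.53 over the 4 above the median. With 1 replicate left out it ran from -2.11 to -1.65. The filters used the mean over all 4 arrays, control included, and every member was highest on the control array. A high control value thus helped a member pass, so the filtered medians and counts are no separate evidence. Against LMPPs the median ran from -0.27 to 0.065 with 1 replicate left out, so it turned, and it was -0.31 with the filter at the 25th percentile and -0.46 with that at the median, against -0.19. Single members turned there too: without replicate 1 and without replicate 2, in that order, Gimap5 was 0.26 and -0.99, Gimap4 0.53 and -0.036, and Gimap7 -0.20 and 0.063. Of the 8 members at least 2-fold higher in control cells than in LMPPs, 4 of 4 were left above the median level, and 7 of 8 stayed at least 2-fold higher after renewed quantile normalization. Over all genes, calls against control cells moved from 874 to 1646 with median centring, of which 1044 were lower, against 496 before, and to 1437 of 14952 with the filter at the 25th percentile. Against LMPPs they moved from 610 to 1456 and 1196. The counts of the gene lists in these settings stand beside that general rise. No paired analysis was possible because LMPPs and control cells had 1 array each and no replicate number. Without a Tcf1 replicate no residual degree of freedom is left, so those values have no test.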

Other observations

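Genes of the upkeep of resting lymphocytes, among them cytokine and homing receptors, were looked at beside the family. Gimap proteins are best known from such cells. Of 14 such genes measured, 4 passed the test upward from LMPPs to Tcf1 cells and none downward. They were Il7r, the receptor chain for interleukin 7, at 2.95, and Ccr7, a homing receptor, at 1.58. Slfn2 at 1.34 and Btg2, an antiproliferative factor, at 0.99 were the others (limma's adjusted p of the 4 from 0.000648 to 0.037). Against control cells 1 was lower, Klf3, a transcriptional repressor, at -1.61, and none was higher. That count was not stable: it was 6 with median centring, 5 and 6 with the filters at the 25th percentile and the median, 4 with a trend, and 0 over all probe sets and without moderation. Against LMPPs the count of 4 ran from 0 in those last settings to 7. Calls against control cells over all genes rose too, from 874 of 19938 to 1646 with median centring and 1237 with a trend. They were 1437 of 14952 and 1295 of 9969 with the filters at the 25th percentile and the median. Klf3 read 8.79 in LMPPs, 9.44 and 9.65 in Tcf1 cells and 11.16 in control cells, so it was highest in control cells as the Gimap genes were, but Tcf1 cells lay above LMPPs. Il7r was highest in Tcf1 cells (12.11 and 12.33), with 11.51 in control cells.

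Some Gimap genes are also active in endothelium. Of 12 endothelial markers, none passed between Tcf1 and control cells with limma, 2 were lower at an unadjusted p under 0.05, and Pecam1, shared with leukocytes, differed by -0.60. Egfl7 fell by 1.22 from LMPPs to Tcf1 cells, the 1 gene of this list that passed there. The count was 3 after renewed quantile normalization and with median centring, 2 with either filter and with a trend, and 0 over all probe sets and without moderation. Between Tcf1 and control cells it was 1 with median centring and with the filter at the median.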
